A study of Mus musculus with 12 samples.

Results

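The genes described here are 40 named genes of fatty acid, triglyceride and phospholipid synthesis, taken by symbol from a list and not by their values. Of the 40, 39 were among the 18255 genes listed in at least 1 library, Cds1 was listed in none, and 36 passed the filter on low counts and were tested. Mlxipl, Mogat2 and Mboat2 did not pass it and are given by their counts. Thrsp, Aqp7 and Mogat1 had under 10 counts in every undifferentiated library and passed only through the differentiated ones, so their rise was bound to appear and adds nothing to a count of members.

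RNA was sequenced from 3T3-L1, an established mouse line of fibroblast-like preadipocytes, in 12 libraries that form 4 groups of 3. A control line, which the titles call NC, and a line overexpressing LIGHT, the cytokine encoded by Tnfsf14, were each taken undifferentiated and after a beige differentiation protocol. All groups grew in high-glucose DMEM with fetal bovine serum. The differentiated groups were induced for 48 h in a medium that held insulin at 5 µg/ml, dexamethasone at 2 µg/ml, rosiglitazone at 1 µM, triiodothyronine at 1 nM, IBMX at 0.5 mM and also indomethacin, and were then kept in a maintenance medium with rosiglitazone, triiodothyronine and insulin. The sources used here do not give the vector behind the overexpression, whether a line is a single clone, the day of harvest or whether the 3 libraries of a group are separate cultures, so p-values measure only the spread between these samples. The comparisons ask how each step of lipid synthesis differed between the stages in each line, between the lines at each stage, and whether the change with stage differed between the lines.

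As background, an adipocyte makes fatty acids from acetyl-CoA by way of malonyl-CoA and joins them to glycerol 3-phosphate. The resulting phosphatidic acid is dephosphorylated to diacylglycerol, which either takes a further fatty acid to become triglyceride or takes a choline or ethanolamine head group to become a membrane phospholipid. In fat cells the first branch fills the lipid droplet and the second supplies its surface and the other membranes, whose fatty acids are then exchanged by lysophospholipid acyltransferases.

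The libraries held 16334079 to 19686675 expected counts, so that a floor of 3 counts corresponds to 0.152 to 0.184 CPM, the counts scaled to a common library size. Tnfsf14 had 0, 1 and 0 counts in undifferentiated control libraries and 38, 53 and 58 in undifferentiated LIGHT libraries. After differentiation it had 113, 0 and 0 counts in the libraries labelled control and 0, 148 and 122 in those labelled LIGHT, so that replicate 1 of each differentiated group goes against its label. Results are therefore given for all 12 libraries and, for the tests, again from a 10-library fit without those 2. All 7 adipocyte markers (Adipoq, Fabp4, Pparg, Plin1, Lipe, Cebpa and Cidec) rose in both lines on differentiation, whereas Ucp1, Cidea, Dio2 and Prdm16, which mark thermogenic fat, had at most 6 counts in any library. With Ppargc1a, the last of the 5 thermogenic markers, their sum was at most 12.0 CPM. Ppargc1a, the only 1 of them tested, was called higher on differentiation in both lines. Its log2 fold change was 2.09 in the control line and 3.09 in the LIGHT line. Of 6 preadipocyte markers (Pdgfra, Pdgfrb, Dlk1, Col1a1, Thy1 and Ly6a) 3 were called lower and 0 higher in each line over 12 libraries. Their sum was 5305 to 6269 CPM before and 5328 to 7891 CPM after differentiation in control libraries. In LIGHT libraries it was 8538 to 9295 CPM before and 5671 to 6935 CPM after. Leukocyte, endothelial, skeletal muscle and hepatocyte markers summed to at most 3.87, 1.10, 0.117 and 1.81 CPM in any library. Over 12 libraries the 1 tested hepatocyte marker was called higher on differentiation in both lines, at 7.22 and 7.47 on the log2 scale. So was the 1 tested endothelial marker, at 1.925 and 2.755. Of 2 tested leukocyte markers 0 were higher and 1 lower in the control line, and 1 and 1 in the LIGHT line. The 4 epithelial markers summed to at most 0.337 CPM before differentiation and to between 1.49 and 10.5 CPM after it, where Krt8 and Krt18 were called higher in both lines. The part of these cells' markers in the results was not tested. In bulk RNA, fewer cells of a type and less RNA per cell cannot be told apart.

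Most genes of fatty acid and triglyceride synthesis rose on differentiation in both lines, while the phospholipid genes rose and fell. A gene was called higher or lower where edgeR's quasi-likelihood test gave a Benjamini-Hochberg adjusted p under 0.05 over all 12993 genes tested. In the control line 25 of 36 tested members were higher and 6 lower, against 32.2% and 31.7% of all genes tested. In the LIGHT line 24 were higher and 6 lower, against 29.5% and 29.1% of all genes. The median log2 fold change of the members was 1.20 in the control line and 1.16 in the LIGHT line, while that of all genes tested was 0.00 in both. The 10-library fit called 26 higher and 6 lower in the control line, where 35.8% and 34.9% of 13150 genes were called. For the LIGHT line it called 24 and 5, with 32.3% and 31.9% of all genes. In the 12-library fit 23 members were higher in both lines, 5 were lower in both and 0 went opposite ways. These counts include Thrsp, Aqp7 and Mogat1, which could only be called higher. Without those 3, 22 of 33 members were higher and 6 lower in the control line and 21 and 6 in the LIGHT line (23 and 6, and 21 and 5, in the 10-library fit). Their medians were 1.14 and 1.06.

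By step, and leaving those 3 out, all 6 lipogenic enzymes were higher in both lines, as were the regulator Srebf1 and Gpd1 of glycerol supply. Of the other 11 tested glycerolipid genes 8 were higher and 0 lower in each line, and the 10-library fit gave the same counts for all of these. Of 7 tested genes of phospholipid synthesis 4 were higher and 2 lower in each line (5 and 2 in the control line in the 10-library fit, and 4 and 2 in the LIGHT line). Of 7 remodelling genes 2 were higher and 4 lower in the control line, and 1 and 4 in the LIGHT line (2 and 4, and 1 and 3, in the 10-library fit). The median log2 fold change in the control line ran from 1.19 for the lipogenic enzymes and 1.17 for these 11 glycerolipid genes to 0.43 for phospholipid synthesis and -0.39 for remodelling.

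**Figure D1:**
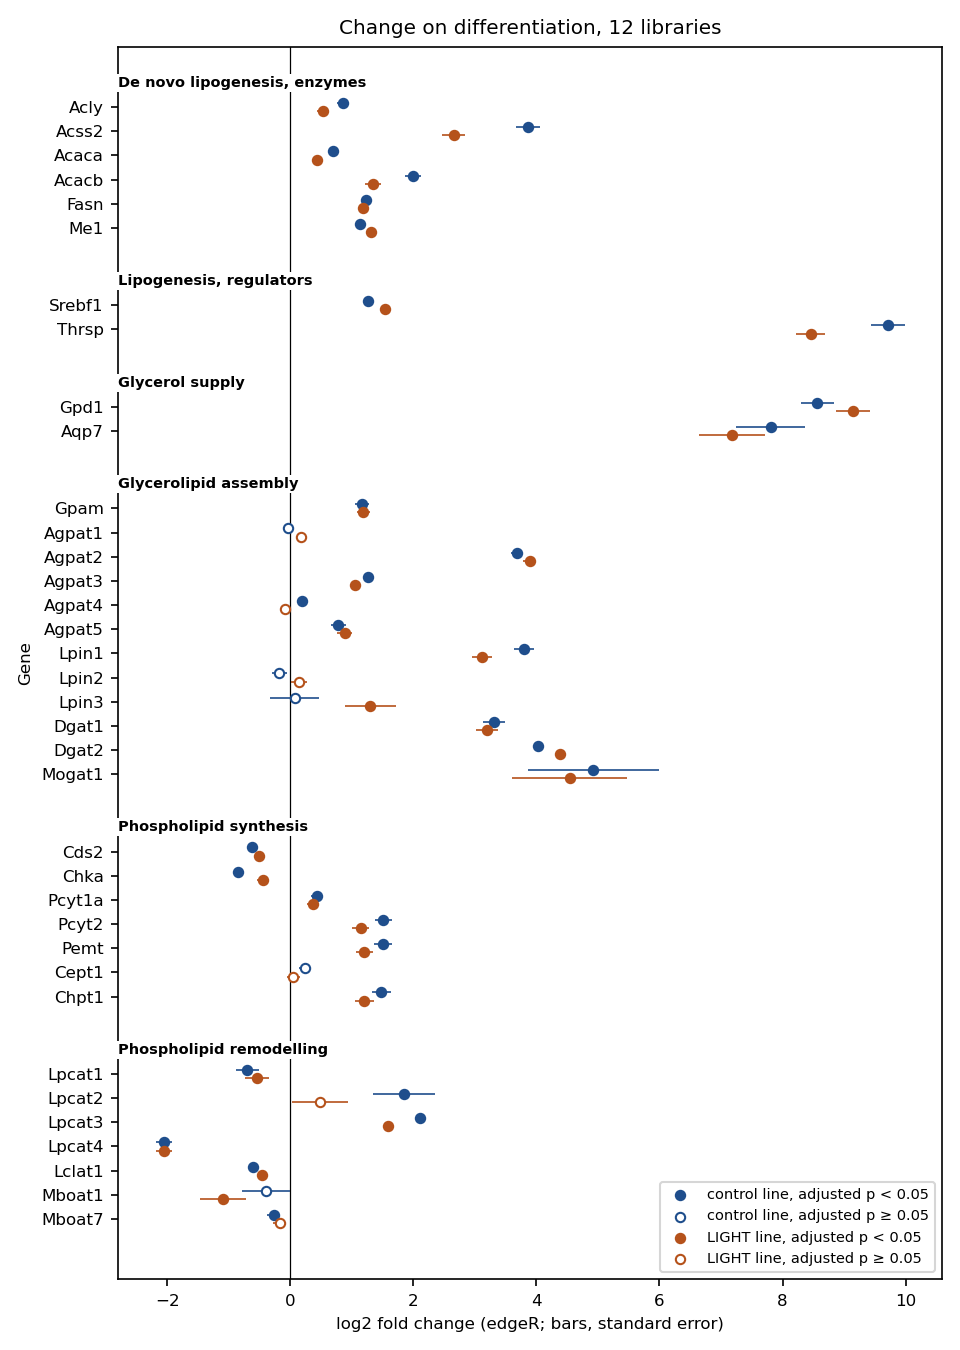
Log2 fold change on differentiation (x axis, edgeR, bars are standard errors) of the 36 tested members by step, in the control line (blue) and the LIGHT line (orange), with filled points where the adjusted p was under 0.05. Lipogenic, glycerol and glycerolipid genes lie to the right of 0 or near it, while phospholipid genes fall on both sides, with Lpcat4 at -2.06 in the control line.

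The bases just before the start site are shown for the lipogenic genes Fasn and Thrsp, which rose in both lines, and for Acss2 and Acacb, whose rise differed between the lines. They come from RefSeq on GRCm38.p6, with 100 bases ending at the base before the annotated start, written 5′ to 3′ on the gene's strand. The expression tables were made on another build, mm8, and hold no positions. Capitals mark CCAAT, searched on both strands, so that a match on the opposite strand reads ATTGG.
Fasn, chr11:120824548-120824647, strand minus: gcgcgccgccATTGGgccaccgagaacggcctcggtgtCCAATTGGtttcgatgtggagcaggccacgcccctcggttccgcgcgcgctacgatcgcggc
Thrsp, chr7:97417551-97417650, strand minus: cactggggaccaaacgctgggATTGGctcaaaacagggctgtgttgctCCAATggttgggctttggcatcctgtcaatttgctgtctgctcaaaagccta
Acss2, chr2:155517943-155518042, strand plus: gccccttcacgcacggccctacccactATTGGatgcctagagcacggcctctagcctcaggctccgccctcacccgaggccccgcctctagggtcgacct
Acacb, chr5:114165418-114165517, strand plus: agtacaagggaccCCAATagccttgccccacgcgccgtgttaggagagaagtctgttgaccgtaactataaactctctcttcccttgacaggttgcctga
In Fasn a match on each strand overlaps the other. Promoter entries were found for 33 of the 39 listed members, with 49 start sites between them whose windows can overlap, and the 250 bases before the start were searched. CCAAT stood in 42.9% of the members' windows against 33.9% of 32851 windows in the table. The GC box, GGGCGG on either strand, stood in 57.1% against 32.7%, the E-box, CACGTG, in 4.08% against 6.02%, and the TATA box, TATAAA, in 4.08% against 12.4%. These are matches of letters only, and some motifs can overlap one another.

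Fasn, the synthase that builds palmitate from malonyl-CoA, was at 299, 304 and 324 CPM in the undifferentiated control libraries and at 718, 713 and 749 CPM after differentiation. In the LIGHT line it went from 317, 302 and 328 to 756, 670.1 and 717 CPM. The stages did not overlap in either line, and the lines overlapped at both stages. Its log2 fold change (± standard error, here and below) was 1.23 ± 0.07 in the control line and 1.18 ± 0.07 in the LIGHT line (1.27 and 1.14 in the 10-library fit), with adjusted p of 9.66e-09 and 1.91e-08.

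Acaca encodes the acetyl-CoA carboxylase that makes malonyl-CoA for synthesis. It was at 85.3, 81.5 and 82.2 CPM before and 133, 134 and 138 CPM after differentiation in control libraries, and at 99.3, 90.5 and 95.8 and then 139, 118 and 131 CPM in LIGHT libraries. The undifferentiated LIGHT libraries lay above all undifferentiated controls, and the stages were apart in both lines. On the log2 scale the change was 0.70 ± 0.07 in the control line and 0.44 ± 0.07 in the LIGHT line (0.74 and 0.39 in the 10-library fit). Acacb, whose carboxylase sits at mitochondria and whose malonyl-CoA restrains fatty acid oxidation, rose from 4.73, 6.57 and 5.25 to 21.2, 20.5 and 24.1 CPM in the control line and from 8.92, 7.44 and 8.75 to 22.0, 20.3 and 21.3 CPM in the LIGHT line. The lines did not overlap before differentiation and overlapped after it. Per length, Acacb made up 6.99% ± 1.23 (SD, n = 3) of the summed carboxylase FPKM, which are scaled by gene length and library size, in undifferentiated controls and 15.4% ± 0.803 after differentiation. LIGHT libraries had shares of 8.96% ± 0.489 and 15.5% ± 0.515.

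Acetyl-CoA comes from citrate through Acly and from acetate through Acss2. Acly was at 268, 283 and 282 CPM in undifferentiated controls and at 429, 539.7 and 547 CPM after differentiation. LIGHT libraries were at 329, 308 and 322 CPM before and 512, 424 and 449 CPM after. Among the differentiated libraries the 3 lowest were replicate 1 labelled control and replicates 2 and 3 labelled LIGHT. The log2 change was 0.86 ± 0.10 in the control line and 0.53 ± 0.10 in the LIGHT line (0.99 and 0.46 in the 10-library fit). Acss2 was at 8.08, 10.9 and 9.91 CPM in undifferentiated controls and at 18.7, 20.5 and 20.3 CPM in undifferentiated LIGHT libraries. After differentiation it was at 107, 151 and 161 CPM in control and 159, 108 and 108 CPM in LIGHT libraries. The same 3 libraries as for Acly were the lowest of the 6. Its log2 change was 3.86 ± 0.20 in the control line and 2.65 ± 0.18 in the LIGHT line (4.04 and 2.45 in the 10-library fit), a 14.5-fold and a 6.29-fold rise over 12 libraries. Me1, the malic enzyme that supplies NADPH, was at 149, 140.4 and 145 CPM in undifferentiated controls and 293, 336 and 330.0 CPM in differentiated ones, with log2 changes of 1.14 ± 0.07 in the control line and 1.31 ± 0.07 in the LIGHT line (1.22 and 1.27 in the 10-library fit).

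Among the regulators, Srebf1, the transcription factor that drives lipogenic genes, was at 55.5, 52.6 and 54.3 CPM in undifferentiated and 142, 124 and 123 CPM in differentiated controls. LIGHT libraries were at 44.4, 46.3 and 49.8 CPM before and 132, 140.5 and 134 CPM after. The stages were apart in both lines, and before differentiation every LIGHT library was below every control. The log2 change was 1.26 ± 0.07 in the control line and 1.53 ± 0.07 in the LIGHT line (1.22 and 1.55 in the 10-library fit). Thrsp, also called Spot 14, a protein tied to lipogenesis, had 0, 2 and 2 counts in undifferentiated controls and 4, 6 and 2 in undifferentiated LIGHT libraries. After differentiation it was at 81.2, 62.4 and 66.8 CPM in control and 71.1, 84.1 and 84.3 CPM in LIGHT libraries. It thus went from at most 6 counts to over 1000 in every differentiated library, with log2 changes of 9.71 ± 0.27 in the control line and 8.46 ± 0.23 in the LIGHT line (9.62 and 8.54 in the 10-library fit). With so few undifferentiated counts, these standard errors understate the uncertainty and cannot be used to compare the lines. The difference between the 2 log2 changes of Thrsp was -1.25 ± 0.75 and was not called by edgeR's test (adjusted p 0.331). Mlxipl, which encodes the glucose-responsive factor ChREBP, had 0 counts in all 6 undifferentiated libraries, 0, 6 and 6 in differentiated controls and 4, 2 and 0 in differentiated LIGHT libraries. Set against 3 counts for the whole undifferentiated group, its ratio was 4.09 in the control line and 2.13 in the LIGHT line. These ratios take the few differentiated counts as they stand, without their counting error, so they are not lower bounds. Without replicate 1 of each differentiated group the control ratio was 5.97, and the LIGHT libraries held 2 counts, under the floor. Even at its highest Mlxipl stayed at 0.363 CPM, so its level was barely detectable at this depth.

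**Figure D2:**
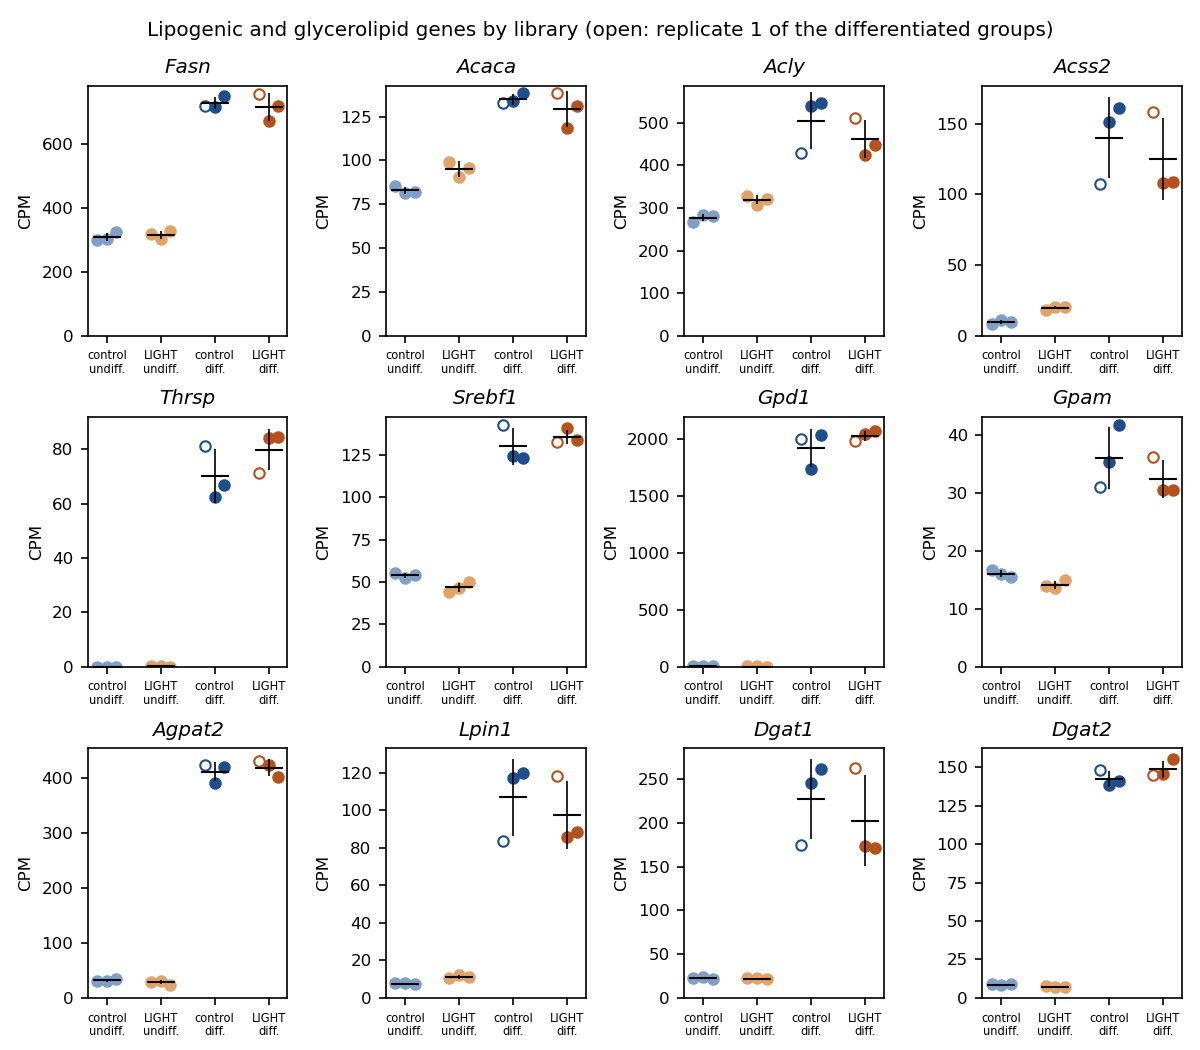
CPM (y axis, from 0) of 12 lipogenic and glycerolipid genes in each library by group, with the mean and SD in black and replicate 1 of the differentiated groups drawn open. In Acss2, Lpin1 and Dgat1 the open control point lies with the filled LIGHT points and the open LIGHT point with the filled control points, while for Fasn all 6 differentiated libraries lie together.

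Glycerol 3-phosphate is made from the glycolytic intermediate dihydroxyacetone phosphate by Gpd1. Gpd1 was at 5.25, 5.17 and 4.72 CPM in undifferentiated and 1993, 1729.5 and 2035 CPM in differentiated controls. LIGHT libraries went from 4.61, 4.66 and 1.50 to 1978, 2036 and 2062 CPM. Its log2 change was 8.57 ± 0.27 in the control line and 9.14 ± 0.28 in the LIGHT line (8.56 and 9.17 in the 10-library fit), which is 379.6-fold and 565-fold over 12 libraries. For Gpd1 the difference between these changes, 0.57 ± 0.34, was not called by edgeR's test (adjusted p 0.318). At 693 ± 61.1 FPKM in differentiated control and 748 ± 37.1 FPKM in differentiated LIGHT libraries (mean ± SD, n = 3) it had the highest level per length of any member. Aqp7, the channel through which adipocytes pass glycerol, had 0, 0 and 2 counts in undifferentiated control and 2, 1 and 0 in undifferentiated LIGHT libraries. After differentiation it reached 8.58, 9.81 and 12.0 CPM in control and 12.3, 7.18 and 7.50 CPM in LIGHT libraries. The ratio of the stages was 268 (95% counting interval 73.7 to 2214) in the control line and 162 (55.0 to 787) in the LIGHT line. Without the 2 doubted libraries Aqp7 had ratios of 287 (79.0 to 2381) and 134 (45.2 to 651).

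Glycerolipid assembly starts with Gpam, the mitochondrial enzyme that puts the first fatty acid on glycerol 3-phosphate. Gpam was at 16.7, 16.01 and 15.5 CPM in undifferentiated and 31.0, 35.4 and 41.6 CPM in differentiated controls, and at 13.9, 13.6 and 14.9 and 36.1, 30.4 and 30.4 CPM in the LIGHT line. The stages were apart in both lines, with log2 changes of 1.17 ± 0.11 in the control line and 1.19 ± 0.11 in the LIGHT line (1.29 and 1.11 in the 10-library fit).

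The 5 lysophosphatidic acid acyltransferases, which add the second fatty acid, did not move alike. Agpat2, the one whose loss causes lipodystrophy, was at 31.1, 30.1 and 34.9 CPM in undifferentiated and 424, 392 and 420.4 CPM in differentiated controls. The LIGHT line had 29.8, 31.2 and 23.9 and then 432, 424 and 402 CPM. The differentiated libraries of the lines overlapped, and none came near the undifferentiated range. Its log2 change was 3.69 ± 0.10 in the control line and 3.89 ± 0.10 in the LIGHT line (3.69 and 3.87 in the 10-library fit). Agpat3 rose by 1.27 ± 0.08 and 1.06 ± 0.08, and Agpat5 by 0.78 ± 0.12 and 0.88 ± 0.12, in the control and LIGHT lines. Agpat4 rose in the control line by 0.18 ± 0.07 and was at -0.08 ± 0.07 in the LIGHT line, where it was not called. Its call was lost without undifferentiated control 1 or 2 (adjusted p 0.0764 and 0.0824). It was also lost with library totals in place of TMM (0.458) and with a replicate block (0.0550). Agpat1 was called in neither line, at -0.04 ± 0.08 and 0.18 ± 0.08. The 10-library fit put Agpat1 at 0.02 and 0.12, Agpat3 at 1.33 and 0.98, Agpat4 at 0.17 and -0.02 and Agpat5 at 0.66 and 0.99 in the control and LIGHT lines. Per length, Agpat2 held 18.4% ± 0.614 (SD, n = 3) of the summed FPKM of the 5 genes in undifferentiated controls and 67.9% ± 0.520 in differentiated ones, and 15.96% ± 1.87 and 67.9% ± 0.332 in the LIGHT line. Agpat1, the most abundant of the 5 before differentiation, went from 39.1% ± 1.93 to 11.0% ± 0.718 in the control line. The summed level was 128 ± 6.50 FPKM before and 409 ± 17.2 FPKM after differentiation in that line.

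Lipins remove the phosphate from phosphatidic acid. Lpin1 was at 7.85, 7.70 and 7.46 CPM in undifferentiated and 83.5, 117 and 120.2 CPM in differentiated controls. LIGHT libraries were at 10.5, 12.2 and 11.0 CPM before and 118, 86.0 and 88.7 CPM after. Before differentiation the LIGHT libraries lay above all controls, and after it the 3 lowest were again replicate 1 labelled control and replicates 2 and 3 labelled LIGHT. The log2 change was 3.80 ± 0.17 in the control line and 3.12 ± 0.16 in the LIGHT line (3.97 and 2.96 in the 10-library fit). Lpin2 was called in neither line, at -0.18 ± 0.13 and 0.14 ± 0.13. Lpin3, at 0.733 to 3.37 CPM over all libraries, rose in the LIGHT line by 1.30 ± 0.42 and was at 0.08 ± 0.40 in the control line. The call was lost without undifferentiated LIGHT 1 or 2 (adjusted p 0.0592 and 0.0637) or differentiated LIGHT 1 (0.0925). The 10-library values were -0.03 and -0.01 for Lpin2 and 0.38 and 0.89 for Lpin3 in the control and LIGHT lines. The family thus changed its leading member: Lpin2 held 80.7% ± 0.538 of the summed lipin FPKM in undifferentiated controls and 26.6% ± 0.934 after differentiation, while Lpin1 went from 13.95% ± 0.867 to 71.4% ± 0.428. In the LIGHT line Lpin1 started higher, at 23.5% ± 1.70, and reached 69.9% ± 1.29.

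Dgat1 and Dgat2 encode the unrelated enzymes that add the last fatty acid of triglyceride. Dgat1 was at 23.0, 23.9 and 21.9 CPM in undifferentiated and 175, 245 and 261 CPM in differentiated controls. LIGHT libraries were at 22.6, 22.4 and 21.2 and then 263, 173 and 171 CPM. The lines overlapped before differentiation, and the differentiated libraries fell into 3 from 171 to 175 CPM and 3 from 245 to 263 CPM, with replicate 1 of each label among the other label's replicates 2 and 3. Its log2 change was 3.31 ± 0.18 in the control line and 3.20 ± 0.18 in the LIGHT line (3.49 and 2.97 in the 10-library fit). Dgat2 was at 8.89, 8.20 and 8.98 CPM in undifferentiated and 148, 138 and 141 CPM in differentiated controls, and at 7.62, 6.91 and 6.82 and 145, 146 and 155 CPM in the LIGHT line. Its differentiated libraries ranged from 138 to 155 CPM without a gap of that kind, although the 3 lowest were again replicate 1 of one label, here LIGHT, with replicates 2 and 3 of the other. On the log2 scale Dgat2 changed by 4.03 ± 0.07 in the control line and 4.38 ± 0.07 in the LIGHT line (4.03 and 4.41 in the 10-library fit). The share of Dgat2 in the summed Dgat1 and Dgat2 FPKM was 22.7% ± 1.59 in undifferentiated and 33.1% ± 5.60 in differentiated controls, and 20% ± 0.760 and 36.8% ± 6.06 in the LIGHT line. Among differentiated libraries that share was 39.5%, 30.3% and 29.4% in those labelled control and 29.9%, 39.3% and 41.2% in those labelled LIGHT.

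The monoacylglycerol acyltransferases, which feed the same branch from monoacylglycerol, were near the floor. Mogat1 had 0, 0 and 1 counts in undifferentiated and 21, 8 and 11 in differentiated controls, and 2, 0 and 0 and 7, 26 and 20 in the LIGHT line. The ratio of the stages was 40.9 (95% counting interval 6.93 to 1656) in the control line and 28.2 (7.42 to 239) in the LIGHT line. Without the 2 doubted libraries Mogat1 had ratios of 28.4 (4.51 to 1178) and 35.6 (9.30 to 302), so the order of the lines turned, within wide intervals. Mogat2 had 4, 3 and 9 counts before and 0, 1 and 0 after differentiation in the control line and 2, 3 and 1 and then 1, 0 and 0 in the LIGHT line, too few to test.

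**Figure D3:**
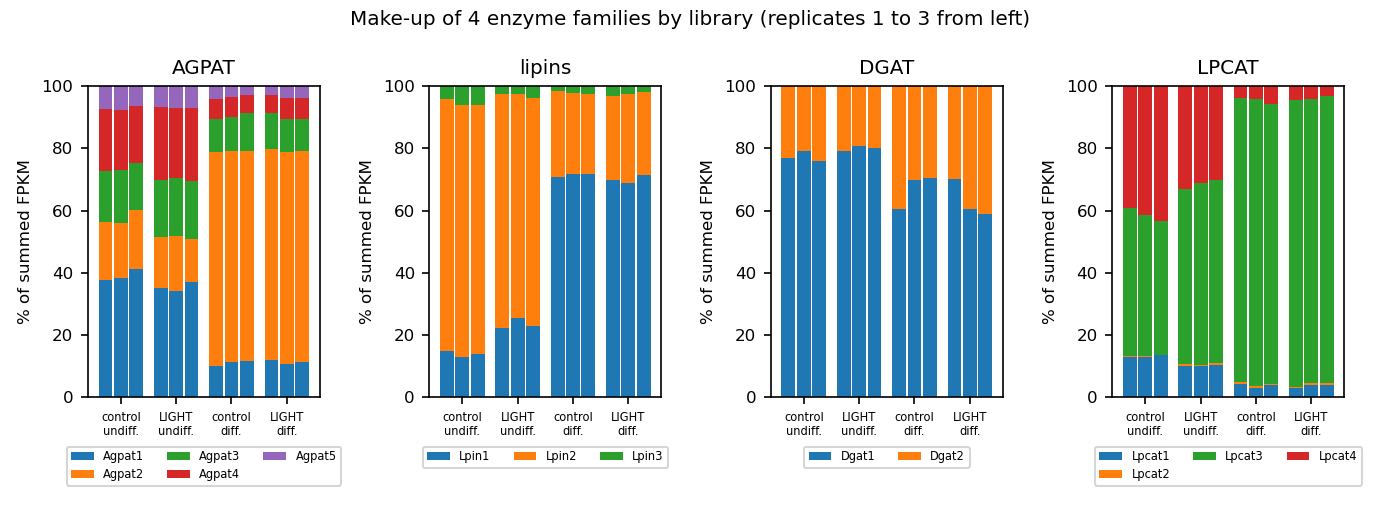
Share of each gene in the summed FPKM of its family (y axis, percent) in every library, by group, for the AGPAT, lipin, DGAT and LPCAT families. Agpat2, Lpin1 and Lpcat3 take most of their families after differentiation in both lines, and the Dgat2 share differs among the differentiated libraries.

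Phospholipid genes are described from the choline and ethanolamine branches on. The bases before the start are shown for Pcyt1a, whose window holds a rare motif, and for Lpcat3, whose rise differed between the lines. Capitals mark TCACNCCAC, a form of the sterol regulatory element, in Pcyt1a and CCAAT in Lpcat3, searched on both strands of the same RefSeq windows on GRCm38.p6.
Pcyt1a, chr16:32430791-32430920, strand plus: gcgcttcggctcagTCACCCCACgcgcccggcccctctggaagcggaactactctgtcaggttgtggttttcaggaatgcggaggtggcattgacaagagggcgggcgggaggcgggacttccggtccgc
Lpcat3, chr6:124663004-124663103, strand plus: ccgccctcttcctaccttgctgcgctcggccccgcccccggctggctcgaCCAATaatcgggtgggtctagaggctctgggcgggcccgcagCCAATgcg
The sterol regulatory element stood in the windows of 2 of the 33 matched members, Pcyt1a and Mlxipl, in 3 windows, of which the 2 of Pcyt1a overlap and hold the same site. That is 6.12% of 49 windows against 1.05% of all.

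Chka encodes choline kinase alpha, the first step of phosphatidylcholine synthesis. It was at 59.8, 64.2 and 60.7 CPM in undifferentiated and 32.0, 37.8 and 33.0 CPM in differentiated controls, and at 44.9, 42.5 and 42.7 and 35.8, 28.0 and 32.0 CPM in the LIGHT line. The stages did not overlap in either line, and the undifferentiated LIGHT libraries lay below all undifferentiated controls. The log2 change was -0.85 ± 0.09 in the control line and -0.44 ± 0.09 in the LIGHT line (-0.78 and -0.53 in the 10-library fit). Pcyt1a, the enzyme that activates phosphocholine with CTP and sets the pace of the choline branch, was at 61.8, 73.6 and 64.8 CPM in undifferentiated and 97.5, 87.6 and 84.5 CPM in differentiated controls, and at 69.6, 72.2 and 73.0 and 80.2, 97.7 and 100.4 CPM in the LIGHT line. The stages did not overlap, and it rose by 0.43 ± 0.09 in the control line and 0.37 ± 0.09 in the LIGHT line (0.39 and 0.47 in the 10-library fit). Its counterpart in the ethanolamine branch, Pcyt2, was at 40, 36.1 and 40.1 CPM in undifferentiated and 88.6, 121 and 122 CPM in differentiated controls. LIGHT libraries were at 49.4, 47.1 and 49.2 CPM before and 133, 92.9 and 96.1 CPM after. Every undifferentiated LIGHT library lay above every control, and after it the library labelled LIGHT replicate 1 was the highest and control replicate 1 the lowest. Its log2 change was 1.51 ± 0.14 in the control line and 1.14 ± 0.14 in the LIGHT line (1.67 and 0.96 in the 10-library fit).

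Pemt converts phosphatidylethanolamine to phosphatidylcholine. It was at 4.73, 4.78 and 4.78 CPM in undifferentiated and 13.3, 11.5 and 15.8 CPM in differentiated controls, and at 6.20, 5.29 and 5.21 and 13.5, 13.3 and 11.6 CPM in the LIGHT line. The stages were apart in both lines and the differentiated libraries of the lines overlapped, with log2 changes of 1.51 ± 0.14 in the control line and 1.20 ± 0.14 in the LIGHT line (1.55 and 1.17 in the 10-library fit). Chpt1, which joins phosphocholine to diacylglycerol, was at 37.6, 38.5 and 35.8 CPM in undifferentiated and 123, 94.8 and 94.2 CPM in differentiated controls, and at 48.8, 53.1 and 46.8 and 83.7, 127 and 131 CPM in the LIGHT line. Its undifferentiated LIGHT libraries lay above the controls, and among differentiated libraries replicate 1 labelled control stood with replicates 2 and 3 labelled LIGHT. It rose by 1.48 ± 0.15 in the control line and 1.20 ± 0.15 in the LIGHT line (1.37 and 1.39 in the 10-library fit). Cept1, which does so with either head group, was called in neither line over 12 libraries, at 0.23 ± 0.10 and 0.05 ± 0.10. In the 10-library fit Cept1 rose in the control line by 0.34 ± 0.09 and was at 0.03 ± 0.09 in the LIGHT line, not called. Cds2, which turns phosphatidic acid towards phosphatidylinositol and cardiolipin, fell by 0.62 ± 0.09 and 0.51 ± 0.09 on the log2 scale in the control and LIGHT lines, and stood at -0.69 and -0.49 in the 10-library fit.

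**Figure D4:**
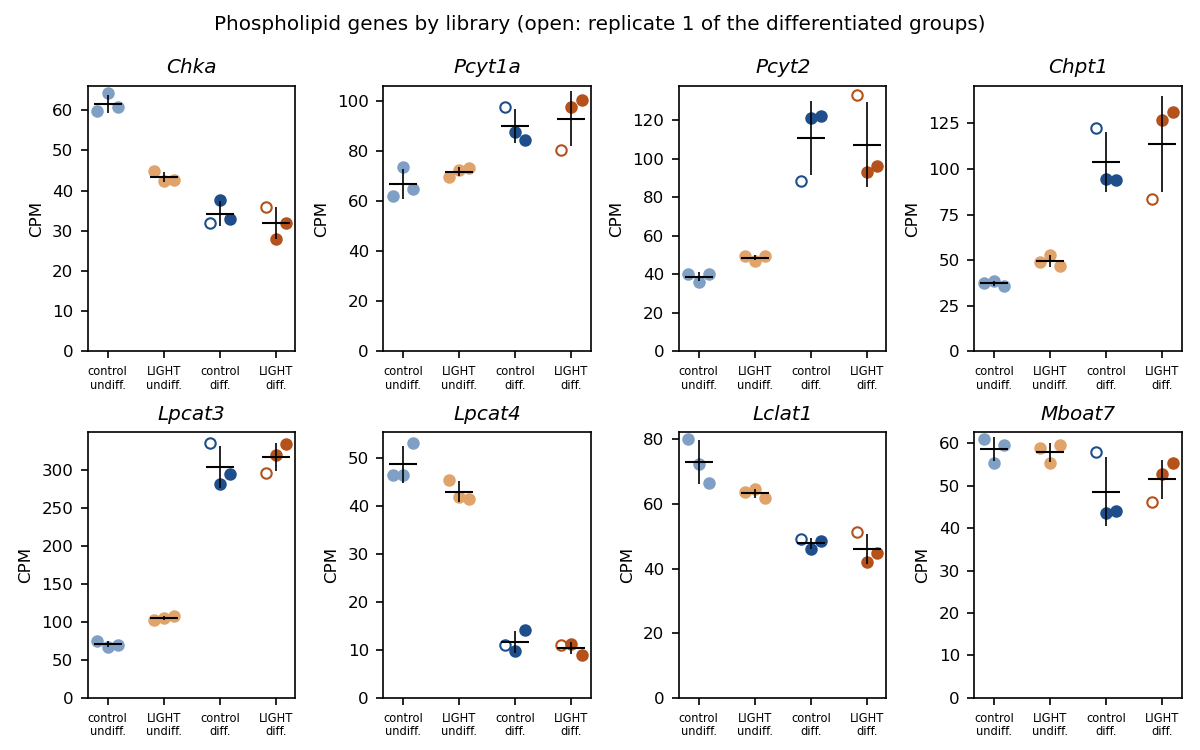
CPM (y axis, from 0) of 8 phospholipid genes in each library by group, with the mean and SD in black and replicate 1 of the differentiated groups drawn open. Pcyt2, Chpt1 and Lpcat3 are higher and Chka, Lpcat4 and Lclat1 lower after differentiation in both lines, and Lpcat3 is higher in the LIGHT line before it.

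Remodelling enzymes exchange the fatty acid at the second position of a phospholipid. Lpcat3, which favours polyunsaturated chains, was at 74.7, 67.4 and 70.1 CPM in undifferentiated and 335, 281 and 295 CPM in differentiated controls. The LIGHT line showed 102, 105 and 108 and then 296, 319.7 and 334 CPM. The undifferentiated LIGHT libraries stood above all undifferentiated controls, and the differentiated ones overlapped, though not without replicate 1 of each label. Its log2 change was 2.10 ± 0.08 in the control line and 1.59 ± 0.08 in the LIGHT line (2.05 and 1.64 in the 10-library fit). Lpcat4 went the opposite way, from 46.5, 46.4 and 53.0 to 11.1, 9.75 and 14.1 CPM in the control line and from 45.4, 41.9 and 41.4 to 11.0, 11.1 and 8.90 CPM in the LIGHT line. It had the largest fall of any tested member in both lines, at -2.06 ± 0.13 in the control line and -2.05 ± 0.13 in the LIGHT line (-1.99 and -2.08 in the 10-library fit). Lpcat1, best known for the saturated phosphatidylcholine of lung surfactant, was at 12.5, 11.8 and 13.7 CPM in undifferentiated and 9.89, 5.75 and 7.78 CPM in differentiated controls, and at 11.3, 11.3 and 11.8 and 5.98, 8.55 and 9.08 CPM in the LIGHT line. The stages did not overlap, and the log2 change was -0.70 ± 0.19 in the control line and -0.54 ± 0.19 in the LIGHT line (-0.88 and -0.37 in the 10-library fit). In the LIGHT line the call was lost without any 1 undifferentiated LIGHT library (adjusted p 0.0555 to 0.0687) or differentiated LIGHT 1 (0.0968). It was kept in the 10-library fit (0.0245).

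Within the summed FPKM of the 4 LPCAT genes, Lpcat3 held 45.2% ± 2.26 in undifferentiated and 91.1% ± 0.980 in differentiated controls, and Lpcat4 41.3% ± 2.00 and 4.66% ± 0.930. LIGHT libraries had Lpcat3 at 57.8% ± 1.41 before and 91.9% ± 0.590 after. Lclat1, a lysocardiolipin acyltransferase, was at 80.2, 72.4 and 66.5 CPM in undifferentiated and 49.3, 46.0 and 48.5 CPM in differentiated controls, and at 63.8, 64.5 and 61.8 and 51.3, 42.1 and 44.8 CPM in the LIGHT line. The stages were apart, and it fell by 0.61 ± 0.09 and 0.46 ± 0.09 in the control and LIGHT lines. Mboat7, which puts arachidonate on lysophosphatidylinositol, fell in the control line by 0.27 ± 0.11 and was at -0.17 ± 0.11 in the LIGHT line. The Mboat7 call was lost without undifferentiated control 1 or 3, any 1 undifferentiated LIGHT library or differentiated control 2 or 3 (adjusted p 0.0512 to 0.183). It was also lost with no low-count filter (0.0556), with a replicate block (0.0543) and with only the groups compared (0.0759). Mboat1, an acyltransferase for lysophosphatidylserine and lysophosphatidylethanolamine, was at 0.886, 1.36 and 1.02 CPM in undifferentiated and 0.312, 0.475 and 0.731 CPM in differentiated LIGHT libraries. It was called lower there, at -1.10 ± 0.38 with an adjusted p of 0.0240, but not without undifferentiated LIGHT 2 or differentiated LIGHT 1 or 2, nor in the 10-library fit, where the adjusted p was 0.122. The call was also lost with DESeq2 (0.0531) and with no low-count filter (0.0623), and adjusted p over all alternatives ran from 0.0142 to 0.122. Lpcat2, at most 2.53 CPM in any library, rose in the control line by 1.85 ± 0.50 and was at 0.48 ± 0.46 in the LIGHT line. In the 10-library fit Lclat1 was at -0.60 and -0.54, Mboat7 at -0.39 and -0.09, and Lpcat2 at 1.85 and 0.75 in the control and LIGHT lines. Mboat2 had 1, 0 and 0 and 3, 0 and 4 counts in the control line and 3, 3 and 3 and 0, 2 and 2 in the LIGHT line before and after differentiation, too few to test.

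Of 45 tested genes of the same pathways outside the 40, 26 were higher and 7 lower on differentiation in the control line, and 26 and 11 in the LIGHT line. That is 57.8% and 15.6% beside 32.2% and 31.7% of all genes in the control line, and 57.8% and 24.4% beside 29.5% and 29.1% in the LIGHT line. The 10-library fit gave 26 higher and 10 lower, and 27 and 11. The 4 with the smallest p were the same in both lines. They were Pcx, pyruvate carboxylase, at 5.32 ± 0.10 and 4.96 ± 0.10, Agpat9, the older symbol of glycerol-3-phosphate acyltransferase 3, at 3.70 ± 0.09 and 3.68 ± 0.09, Nr1h3, the liver X receptor alpha, at 4.70 ± 0.15 and 4.99 ± 0.15, and Abhd5, the lipase co-activator, at 2.47 ± 0.09 and 2.30 ± 0.09. Precursor supply and its regulators gave 13 of 17 higher and 0 lower in the control line, and the other phospholipid genes gave 5 of 14 higher and 4 lower, a share near that of all genes.

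Before differentiation Acss2, Acaca, Acacb, Lpin1, Agpat4 and Lpcat3 were higher in the LIGHT line than in the control line, and Srebf1, Me1, Dgat2 and Chka were lower. Over 12 libraries 6 of 36 members were higher in LIGHT cells and 4 lower, beside 12.3% and 14.2% of all genes tested. The members' median log2 difference was 0.01 and that of all genes -0.01. The 10-library fit, which keeps all 6 undifferentiated libraries, called 11 higher and 7 lower, with 22.3% and 22.1% of all genes. The 12-library calls are near the share of all genes called, in both directions.

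The 3 largest rises were Acss2, Acacb and Lpcat3, whose library values are given above and did not overlap between the lines. Acss2 was higher by 1.04 ± 0.20 on the log2 scale (adjusted p 0.00241), which is 2.06-fold. Acacb was higher by 0.60 ± 0.14 (adjusted p 0.00690) and Lpcat3 by 0.57 ± 0.08 (adjusted p 0.000274). The remaining rises were Lpin1 at 0.55 ± 0.17, Agpat4 at 0.31 ± 0.07 and Acaca at 0.20 ± 0.07. The 3 largest falls were Chka at -0.51 ± 0.09 (adjusted p 0.00164), Dgat2 at -0.29 ± 0.08 (adjusted p 0.0192) and Me1 at -0.23 ± 0.07 (adjusted p 0.0263). Srebf1 was lower by 0.21 ± 0.07, with an adjusted p of 0.0483. Fasn, at 0.03 ± 0.07 with an adjusted p of 0.786, was not called. The calls of Acaca, Me1, Srebf1, Lpin1 and Dgat2 were each lost without undifferentiated control 1 or 3 or undifferentiated LIGHT 2 (adjusted p 0.0536 to 0.133), and some also without other libraries, at up to 0.168 for Srebf1 without undifferentiated LIGHT 1. In the 10-library fit, where all 10 were called, the values were 1.05 for Acss2, 0.61 for Acacb, 0.58 for Lpcat3, 0.56 for Lpin1, 0.32 for Agpat4 and 0.21 for Acaca. Among those lower they were -0.49 for Chka, -0.28 for Dgat2, -0.22 for Me1 and -0.20 for Srebf1. Leaving out single libraries moved the count of 10 to 5 without undifferentiated control 1 or 3 or undifferentiated LIGHT 2, to 6 without undifferentiated LIGHT 1 or 3, and to 15 without differentiated control 1. Calls among all genes moved from 3446 to between 2238 and 2611 in the fits that gave 5 or 6, and to 4280 in the fit that gave 15. Summed preadipocyte markers also differed between the undifferentiated lines, at 5305 to 6269 CPM in control and 8538 to 9295 CPM in LIGHT libraries. Of these 6 markers 2 were called higher and 1 lower in LIGHT cells over 12 libraries (3 and 1 in the 10-library fit). The part of these markers in the result was not tested.

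Other pathway genes gave 8 of 45 higher and 4 lower in undifferentiated LIGHT cells, or 17.8% and 8.89%, near the 12.3% and 14.2% of all genes tested. The 10-library fit gave 13 and 6, where 22.3% and 22.1% of all genes were called. The smallest p belonged to Srebf2, the sterol-regulating relative of Srebf1, at 0.57 ± 0.06, Idh1, the cytosolic isocitrate dehydrogenase, at 0.49 ± 0.08, Lpgat1, an acyltransferase for lysophosphatidylglycerol, at -0.38 ± 0.07, and Slc44a1, a choline transporter, at 0.49 ± 0.09. Srebf2 was thus called higher and Srebf1 lower.

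After differentiation the comparison of the lines depended on the 2 libraries whose Tnfsf14 goes against their labels. With all 12 libraries 0 of 36 members were called by edgeR's quasi-likelihood test, as were 0% of all genes in either direction, and DESeq2 called 0 members. At an unadjusted p under 0.05 edgeR had 1 member, Cept1, at -0.24 ± 0.10. The members ran from -0.24 to 0.36 on the log2 scale, with a median of -0.03, against 0.00 for all genes. Without the 2 libraries, with 2 libraries on each side, 6 members were higher and 10 lower in LIGHT cells, beside 14.6% and 16.4% of all genes tested. The median of the members was then -0.10 and that of all genes -0.01. All further values in this comparison are from those 10 libraries.

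Among the lipogenic enzymes 3 of 6 were lower and 0 higher. Acss2 was at 151 and 161 CPM in control and at 108 and 108 CPM in LIGHT replicates 2 and 3, a log2 difference of -0.54 ± 0.08 (adjusted p 2.93e-05). Acly was lower by 0.32 ± 0.06 and Me1 by 0.18 ± 0.05. Fasn was at -0.08 ± 0.06 and Acaca at -0.14 ± 0.07, neither called. Of the regulators, Thrsp was higher by 0.37 ± 0.09 (adjusted p 0.00328) and Srebf1 was at 0.14 ± 0.06, not called. Gpd1 and Aqp7 were not called, at 0.12 ± 0.12 and -0.58 ± 0.25.

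In glycerolipid assembly Gpam, Lpin1, Lpin2 and Dgat1 were lower and Agpat5 was higher. Gpam differed by -0.35 ± 0.10, Lpin1 by -0.45 ± 0.07 and Lpin2 by -0.32 ± 0.08. The smallest p of any member was that of Dgat1, at -0.56 ± 0.06 (adjusted p 7.38e-07), while Dgat2 was at 0.10 ± 0.06 and not called. Agpat5 was higher by 0.32 ± 0.08, and Agpat2 was at 0.02 ± 0.08. In the phospholipid branches Pcyt2 was lower by 0.37 ± 0.07, Cept1 by 0.35 ± 0.09 and Chka by 0.25 ± 0.09. Chpt1 was higher by 0.44 ± 0.07 and Pcyt1a by 0.20 ± 0.07. Of the remodelling genes Mboat7 was higher by 0.29 ± 0.08 and Lpcat3 by 0.17 ± 0.06, and 0 were lower.

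**Figure D5:**
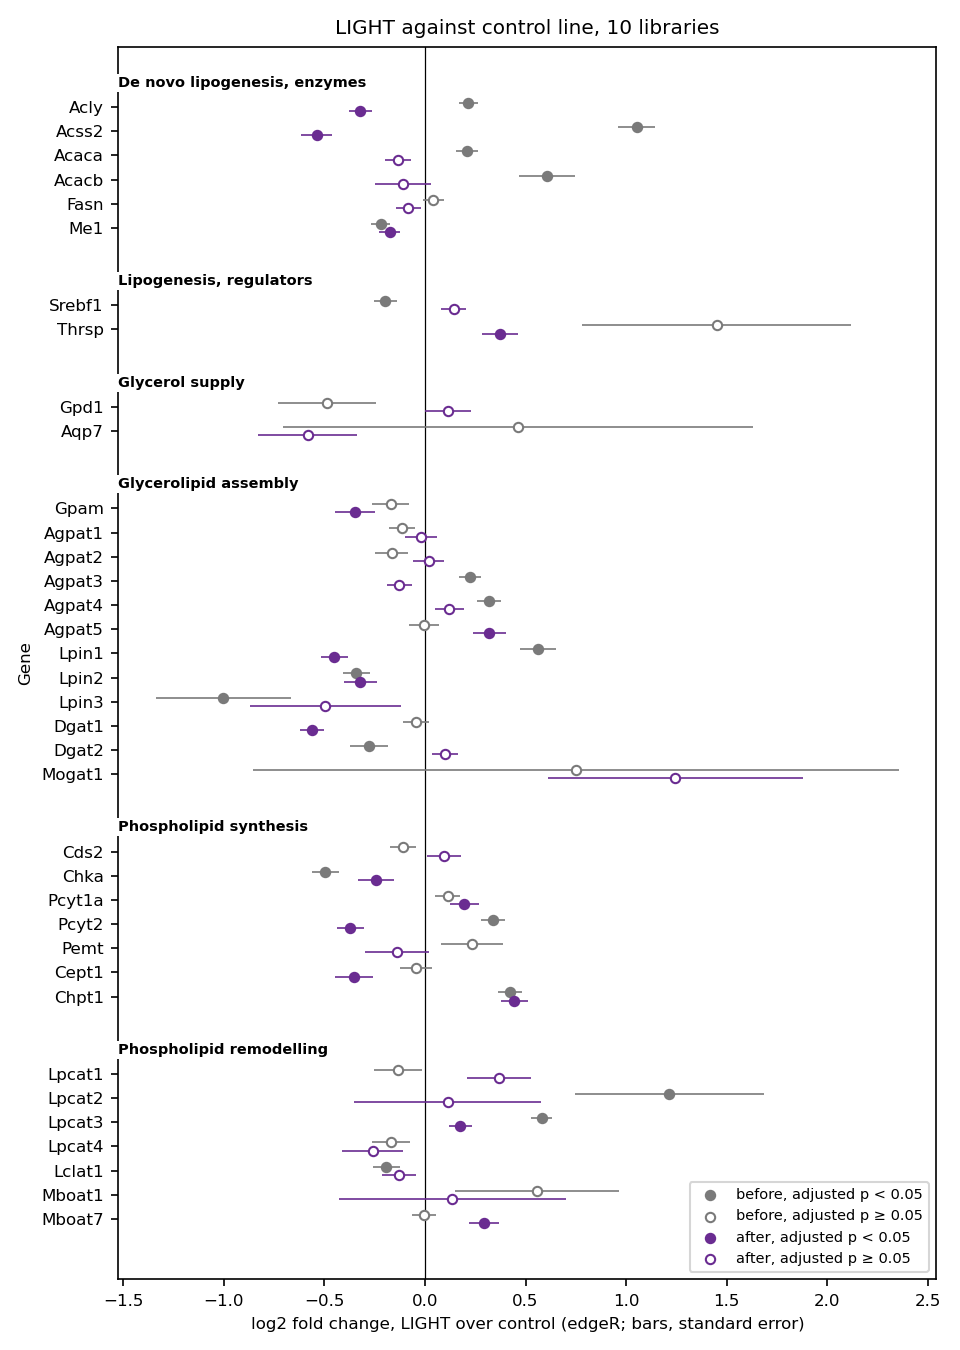
Log2 fold change of LIGHT over control cells (x axis, edgeR on the 10 libraries, bars are standard errors) before (grey) and after differentiation (purple) for the 36 tested members, with filled points where the adjusted p was under 0.05. Acly, Acss2, Lpin1 and Pcyt2 lie right of 0 before and left of 0 after differentiation, while Chpt1 and Lpcat3 lie right of 0 at both stages.

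The same libraries also differed in markers of the cell state. Summed over the 7 adipocyte markers they held 17606 and 18777 CPM in differentiated control 2 and 3 and 13097 and 13497 CPM in LIGHT 2 and 3, with 5 of the 7 called lower and 0 higher in LIGHT cells. Replicate 1 labelled control was at 12995 CPM and replicate 1 labelled LIGHT at 18674 CPM. The 6 preadipocyte markers summed to 5328 and 5601 CPM in those control and to 6935 and 6860 CPM in those LIGHT libraries. They went both ways, with 3 of the 6 called higher and 2 lower in LIGHT cells. Of 4 epithelial markers, Krt8 and Krt18 were lower in LIGHT cells, and the summed level was 10.5 and 7.45 CPM against 2.53 and 2.25 CPM. Ppargc1a, the only thermogenic marker tested, was called higher in LIGHT cells, by 0.76 on the log2 scale. The part of these markers in the results on lipid genes was not tested. Other pathway genes gave 9 of 45 higher and 15 lower (20% and 33.3%, beside 14.6% and 16.4% of all genes), led by p by Gpat4, a glycerol-3-phosphate acyltransferase of the endoplasmic reticulum, at 0.52 ± 0.06, Crls1, cardiolipin synthase, at -0.50 ± 0.06, Cs, citrate synthase, at -0.38 ± 0.05, and Mid1ip1, a relative of Thrsp, at 0.47 ± 0.07.

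The change on differentiation itself differed between the lines for 4 members over 12 libraries, 1 higher and 3 lower in LIGHT cells, beside 5.08% and 4.26% of all genes tested. The median over the members was -0.08 and over all genes 0.00. Acss2 rose less in LIGHT cells, with a difference of -1.21 ± 0.26 between the log2 changes (adjusted p 0.0124). Acacb rose less as well, at -0.65 ± 0.18 (adjusted p 0.0440), and so did Lpcat3, at -0.51 ± 0.11 (adjusted p 0.0114). Dgat2 rose more, by 0.35 ± 0.10 (adjusted p 0.0456). Leaving out 1 library kept the Acacb call only for undifferentiated control 2, differentiated control 1 or differentiated LIGHT 1, and otherwise gave adjusted p of 0.0501 to 0.108. It kept the Dgat2 call only for undifferentiated LIGHT 1 or differentiated control 1, and otherwise gave 0.0518 to 0.120. For these 4 the lines were apart before differentiation and overlapped after it over all 12 libraries. Without replicate 1 of each differentiated group, the differentiated lines still overlapped for Acacb only. Acss2 was then lower, and Lpcat3 and Dgat2 higher, in every LIGHT library than in every control. Fasn had an interaction of -0.05 ± 0.09, which was not called.

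In the 10-library fit 4 members had a higher log2 change on differentiation and 9 a lower one in LIGHT than in control cells, beside 14.9% and 16.1% of all genes tested. Acss2 stood at -1.59 ± 0.12. Lpin1 was at -1.01 ± 0.11, and was not called by edgeR's test with 12 libraries (adjusted p 0.0772). Pcyt2 was at -0.71 ± 0.09, Acly at -0.54 ± 0.07, Dgat1 at -0.52 ± 0.09 and Acaca at -0.34 ± 0.09, all 4 of which had adjusted p over 0.05 with 12 libraries. Acly, Acss2, Lpin1 and Pcyt2 were called higher in LIGHT cells before differentiation and lower after it. Chka, Lpin2 and Me1 were lower at both stages, and Chpt1 and Lpcat3 higher at both. The other lower ones were Lpcat3 at -0.41 ± 0.08, Agpat3 at -0.35 ± 0.08 and Acacb at -0.72 ± 0.20. The 4 higher interactions were Dgat2 at 0.38 ± 0.11, Srebf1 at 0.34 ± 0.09, Agpat5 at 0.32 ± 0.11 and Mboat7 at 0.30 ± 0.10. Among other pathway genes 2 of 45 were higher and 4 lower over 12 libraries, with Srebf2 at -0.57 ± 0.09, Idh1 at -0.60 ± 0.12, Pgs1, the phosphatidylglycerophosphate synthase, at 0.47 ± 0.09, and Pgd, of the pentose phosphate pathway, at 0.40 ± 0.09. The 10-library fit gave 9 and 13.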

How the data were processed

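RNA of 12 3T3-L1 libraries was extracted with TRIzol, per the labels' protocols. The authors deposited a table per library with expected counts, FPKM and gene lengths, per the file headers. The expected counts hold fractions, and the deposited FPKM divide by length, whose value differed between libraries by up to 38.3% for Cds2 and by at most 12.6% for any other member. The submitters' processing notes name mm8 as genome. The aligner, the counter and the use of strand are each not given in the sources used here, so overlapping, antisense and near-identical genes can share counts. A gene absent from a table was read as 0.

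Rounded expected counts went into the quasi-likelihood test of edgeR 4.0.16 under R 4.3.3, with 1 coefficient for each of the 4 groups, after filterByExpr (minimum count 10) and TMM scaling, and adjusted p-values were taken over all genes tested. Values are CPM scaled by TMM. Standard errors were derived from F and the log2 fold change, so they can be too small where a group holds few counts. Intervals cover counting error only. Ratios to the floor of 3 counts leave out the counting error of the higher group. The procedure was tested on simulated data with the same spread for every gene and no library against its label. That test therefore says nothing about the effect of the 2 doubted libraries. The members and lists were chosen with earlier results of these data known. Of the members, 17 fixed ones and the 3 largest called rises and falls of each contrast with at least 1 CPM in the higher group are given library by library, and of other pathway genes the 4 with the smallest p. Library values of Me1 are given for the control line only, and those of Mboat1 for the LIGHT line only. Results were also computed with DESeq2 1.42.0, library totals, RLE scaling, no filter and a stricter one (minimum count 50), only the groups compared, a replicate block, each library left out, and the 2 doubted libraries left out. No pairing by replicate number was seen before differentiation, where deviations of same-numbered libraries correlated at -0.0069 to 0.044. The other comparisons ranged from -0.62 to 0.097. They hold the 2 doubted libraries, which shift their group means, so they cannot decide whether libraries pair.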

Additional observations from a re-analysis of the deposited data

Results flagged for a closer look

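The change on differentiation differed between the lines by the test of the interaction for 4 members over all 12 libraries. The log2 difference, LIGHT minus control, was -1.21 for Acss2, -0.65 for Acacb, -0.51 for Lpcat3 and 0.35 for Dgat2.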

How the results depend on the processing

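No called member changed direction under any setting. Members called on differentiation numbered 29 to 32 in control and 27 to 30 in LIGHT cells over all settings. Of all genes tested, 8307 and 7612 of 12993 were called with 12 libraries, and 9292 and 8432 of 13150 without the 2 doubted ones. Before differentiation the 10 calls became 18 without the 2 libraries whose Tnfsf14 goes against their labels, 17 with only the groups compared, and 5 to 15 with single libraries left out. Among all genes tested, the 3446 of 12993 called became 5836 of 13150 and 5601 of 12378 in the first 2 of these settings. After differentiation the 0 calls became 16 without those 2 libraries and stayed 0 in every other setting. Without those 2 libraries the calls among all genes went from 0 of 12993 to 4079 of 13150. The 4 interaction calls became 13 without the 2 libraries, 2 with no low-count filter, 2 with the replicate block, and 2 to 7 with single libraries left out. Among all genes, the 1214 of 12993 called became 4077 of 13150, 1015 of 18232 and 747 of 12993 in the first 3 of these settings. With the replicate block the counts for control and LIGHT differentiation and before and after differentiation were 29, 30, 7 and 0. Over all 12993 genes they were 7931, 7220, 2834 and 0. The cause of these moves was not tested. Calls made in every setting that tested the member were 29 of 31 in control (not Agpat4 or Mboat7) and 27 of 30 in LIGHT (not Lpin3, Lpcat1 or Mboat1). They were 5 of 10 before differentiation (not Acaca, Me1, Srebf1, Lpin1 or Dgat2) and 2 of 4 for the interaction (not Acacb or Dgat2). Some of these members were not tested in every setting, as the stricter filter tested only 32. At 3 counts, worth 0.152 to 0.184 CPM, depth limits Mlxipl, Mogat2 and Mboat2.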
